A study of Mus musculus with 8 samples.

Results

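The genes examined were the odorant receptor (OR) genes numbered Olfr466 to Olfr542, a stretch of the mouse receptor numbering that lies beside the class I receptors Olfr543 to Olfr692. A gene was taken when a transcript cluster of the array, which combines the probes over all exons of a gene, named it and no other gene. Pseudogenes were left out. This gave 53 receptors among 21789 clusters with exactly 1 gene symbol. All 53 were fitted and none was removed for low signal. The comparison was between 4 knockouts, which were OmpCre:Emx2 fl/fl, and 4 of their littermates as controls.

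All 8 mice were at postnatal day 1, had a mixed 129 x C57BL/6J background and gave total RNA from olfactory mucosa, and each array was counted as 1 mouse. Knockouts carried OmpCre and 2 floxed copies of Emx2. Controls 1 to 3 were OmpCre:Emx2 fl/+ and so carried OmpCre and a single floxed copy, while control 4 was Emx2 fl/fl without Cre. Cre in these mice is an insertion in the Omp gene, which mature olfactory sensory neurons (OSNs) express, and in the study's description it acted in only a fraction of them. Both sexes were used, and the labels name no litter. Olfactory mucosa is a mixed tissue, so fewer neurons that choose a receptor and less receptor mRNA per neuron cannot be told apart in these values.

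Each mature OSN transcribes a single allele of a single OR gene, so the mRNA of a receptor in a whole mucosa depends on how many neurons chose it and on how much mRNA each makes. Mammalian ORs fall into class I, which resemble the receptors of fish and sit together in a cluster on mouse chromosome 7, and the far more numerous class II, which sit in clusters on many chromosomes. Emx2 and Lhx2 are homeodomain transcription factors of this lineage, and homeodomain sites and Olf/Ebf (O/E) sites are common near OR genes. The comparison asks whether loss of Emx2 from Omp-expressing neurons changed the mRNA abundance of receptors in this stretch.

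The arrays correlated at r = 0.985 to 0.996 over all clusters. Control 2 stood apart on the first principal component, at 32.9 against -11.8 to 6.11 for the other 7 arrays, and its mean over a list of 9 myeloid markers was 0.62 above the list's 8-array mean on the log2 scale. Emx2 had log2 signals of 10.25, 10.14, 10.34 and 10.14 in knockouts, against 10.83, 10.74, 10.58 and 10.89 in controls, without overlap. Its difference was -0.55 ± 0.08 (SE), a fold of 0.684, with a limma adjusted p of 0.201. Every statement on the test of a receptor below therefore stands in a table in which no cluster, the deleted gene included, passed an adjusted p of 0.05 (0.0% of 21789 called). At an unadjusted p under 0.05, limma placed 2.55% of all clusters lower and 2.62% higher in knockouts.

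The numbering was checked against the gene table. Of 77 numbers in the range, 59 were genes in that table, 53 of which had a cluster of their own. The other 6, namely Olfr487, Olfr503, Olfr506, Olfr519, Olfr533 and Olfr538, appeared only in clusters that name several genes, and they were not analysed as single receptors. Another 12 receptors had a cluster of their own and were also named by such a shared cluster. The label of the group held for most of its genes. By the receptor family in the RefSeq synonyms (MOR, mouse odorant receptor) 52 of 53 were class II and 1, Olfr504 of family 40, was class I. By position 52 lay on chromosome 7 and 1, Olfr466, on chromosome 13.

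The chromosome 7 receptors did not form a single cluster. On the side of Omp stood a pair, Olfr520 and Olfr521, with 19 protein-coding genes other than receptors between Omp and the pair. A further 108 such genes separated the pair from a central block of 38 receptors, Olfr467 to Olfr518, of which 29 belonged to family MOR204. Another 331 such genes lay between this block and a distal block of 12 receptors, Olfr522 to Olfr541, which belonged to families MOR103, MOR104, MOR251, MOR252 and MOR253. The class I receptors were closest to the central block, with 28 such genes between Olfr692 and Olfr467. Adjacent receptor numbers in the range, such as Olfr521 and Olfr522, can thus be far apart.

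Most of the 53 receptors had lower mean signal in knockouts, by small amounts. The mean was lower for 39 of 53 (73.6%) and higher for 14, against 48.6% lower over all clusters. Scaling of the arrays to a mature OSN list, which raised the median difference of all clusters to 0.10, left 25 of 53 lower, beside 12.4% of all clusters. The median difference was -0.09 on the log2 scale (fold 0.939), with quartiles at -0.22 and 0.00, and the single receptors ran between -0.58 and 0.24. Over all clusters the median difference was 0.00. The SE of a receptor ran between 0.06 and 0.26 with a median of 0.11. With each mouse left out in turn, the median difference of the 53 lay between -0.16 without control 3 and -0.04 without control 4.

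In the limma fit 8 of the 53 receptors (15.1%) were lower at an unadjusted p under 0.05 and 0 were higher, beside the 2.55% and 2.62% of all clusters given above. At a p under 0.01 there were 2 lower and 0 higher, where 0.601% of all clusters were lower and 0.61% higher. For 3 receptors every knockout lay below every control and for 0 every knockout lay above, where 1.48% and 1.62% of all clusters did so. None of the 53 passed after Benjamini-Hochberg adjustment over all clusters, and the smallest limma adjusted p was 0.739. The count of 8 was 14 without control 3, 12 without knockout 3 and 6 without control 2, the array that stood apart. In those fits 2.96%, 3.28% and 2.42% of all clusters were lower. The other 830 class II receptors of the array, with 73.7% lower, a median difference of -0.10 and 12.5% lower at a p under 0.05, gave values close to those of the 53. The difference between these sets was not tested.

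**Figure D1:**
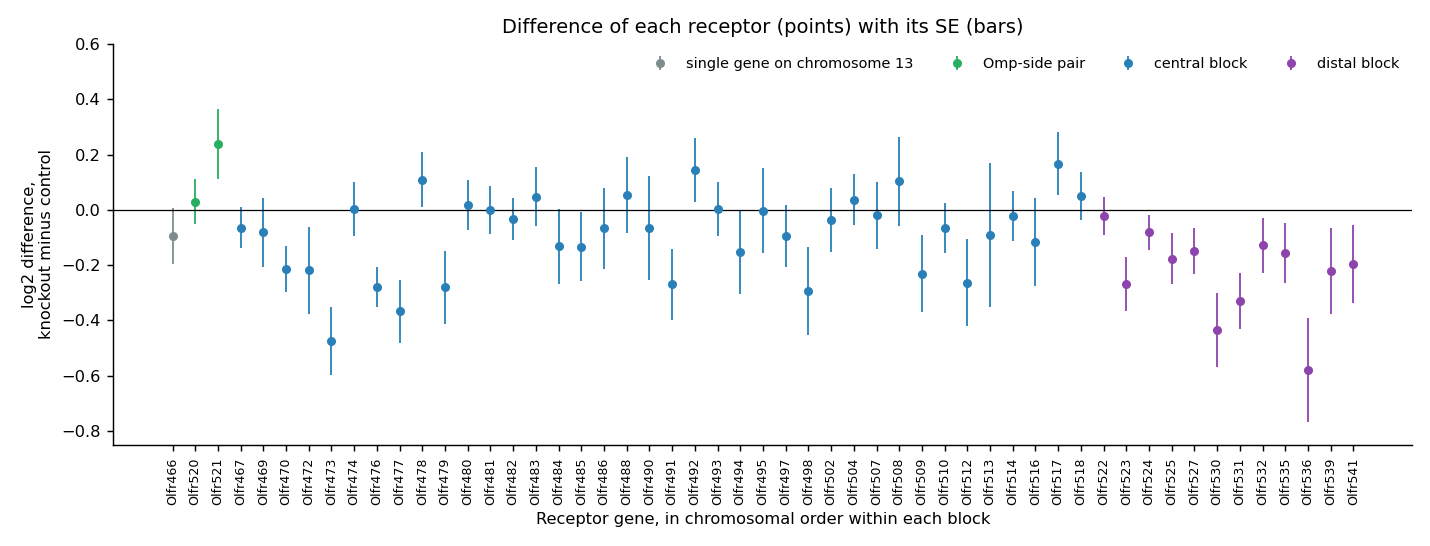
Difference in log2 signal, knockout minus control, for each of the 53 receptors (points) with its standard error (bars), 4 mice per group, set out in chromosomal order within each block. All 12 distal receptors lie below 0 (10 of 12 once arrays were scaled to the mature OSN list, where 12.4% of all clusters did), the 38 central receptors lie on both sides, and the Omp-side pair lies above 0.

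The receptors with the smallest p in the central block were near neighbours. Olfr473, Olfr476 and Olfr477, all of family MOR204, follow each other in the block with Olfr474 between the first of them and the others. They were also the 3 receptors without overlap between groups.

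Olfr473 had log2 signals of 7.06, 7.53, 7.31 and 6.99 in knockouts, against 7.74, 7.61, 7.56 and 7.87 in controls. The highest knockout, mouse 2, lay just below the lowest control. The difference was -0.47 ± 0.12 (fold 0.720) at an unadjusted limma p of 0.0043 and an adjusted p of 0.739.

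Olfr476 read 7.94, 8.11, 8.10 and 7.86 in knockouts and 8.29, 8.23, 8.20 and 8.41 in controls. It had the tightest groups of the 3, with SDs of 0.12 in knockouts and 0.09 in controls. Its difference was -0.28 ± 0.07 (fold 0.824), again with an limma adjusted p of 0.739. Olfr477 read 7.90, 8.02, 8.07 and 7.72 in knockouts and 8.43, 8.07, 8.17 and 8.50 in controls, so that knockout 3 and control 2 almost met. Its difference was -0.37 ± 0.11 (fold 0.776, limma adjusted p = 0.837).

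Olfr474, which lies among these genes, had overlapping groups and a difference far smaller than its error. Its signal was 5.47, 5.48, 5.73 and 5.23 in knockouts and 5.47, 5.45, 5.41 and 5.58 in controls, a difference of 0.00 ± 0.10. This receptor was also among the dimmest of the 53, with a mean of 5.48.

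**Figure D2:**
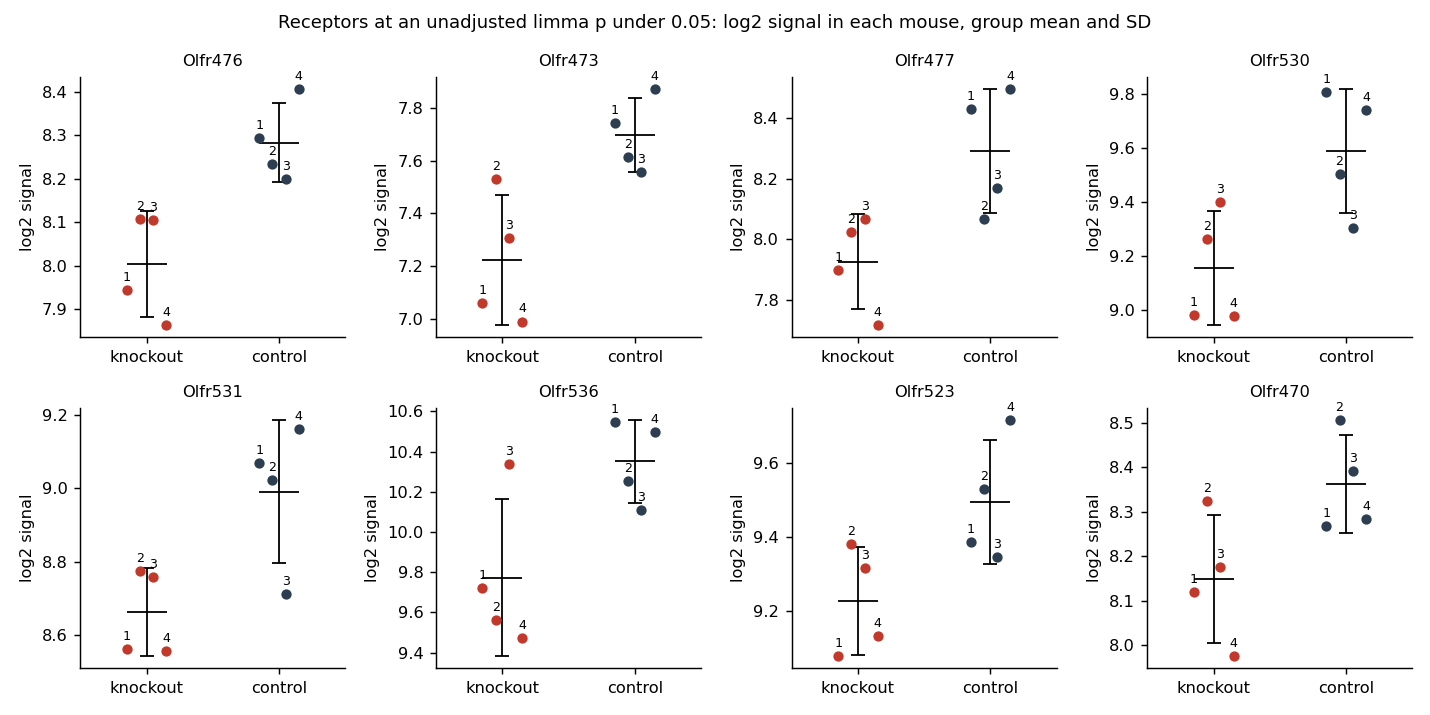
Log2 signal in each mouse (numbered points) for the 8 receptors at an unadjusted limma p under 0.05, with the group mean (line) and SD (bars), 4 mice per group and a separate axis for each gene. Only Olfr476, Olfr473 and Olfr477 show no overlap. In Olfr536 knockout 3, at 10.34, lies among the controls.

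Among the other central receptors, 3 more were named for a lower mean, and their groups overlapped. Olfr470, also of family MOR204, read 8.12, 8.32, 8.18 and 7.98 in knockouts and 8.27, 8.51, 8.39 and 8.28 in controls, a difference of -0.21 ± 0.08 (limma adjusted p = 0.910). Only knockout 2 reached into the range of the controls. Olfr479, of family MOR267, read 7.40, 7.89, 7.84 and 7.79 in knockouts and 8.14, 7.87, 7.80 and 8.24 in controls, and its difference of -0.28 ± 0.13 missed even the unadjusted threshold. Olfr491 read 8.52, 8.63, 8.85 and 8.38 in knockouts and 9.04, 8.80, 8.58 and 9.04 in controls, a difference of -0.27 ± 0.13. For both of these the lowest controls were mice 2 and 3.

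The central receptors with higher means in knockouts were further from any threshold. Olfr517, of family MOR268, read 7.0, 7.36, 7.10 and 7.50 in knockouts and 7.13, 7.20, 6.92 and 7.04 in controls, a difference of 0.17 ± 0.11. Olfr492 read 8.56, 8.51, 8.66 and 8.30 in knockouts and 8.18, 8.45, 8.19 and 8.63 in controls, a difference of 0.15 ± 0.12 in which control 4 was close to the highest knockout. Olfr478 differed by 0.11 ± 0.10 and Olfr508 by 0.10 ± 0.16, each with overlapping groups. The limma adjusted p was 0.910 or above for each of these 4 receptors.

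In all, 26 of the 38 central receptors had a lower mean and 12 a higher mean, with a median of -0.07, and after scaling to the mature OSN list 14 of 38 were lower, beside 12.4% of all clusters. With single mice left out the median ran from -0.11 without control 3 to -0.02 without control 4. Of the 38, 4 (10.5%) were lower at an unadjusted p under 0.05, beside 2.55% of all clusters and 12.5% of the other 830 class II receptors. All 4 were from family MOR204, to which 29 of the 38 belong. This count was 8 without control 3 and 7 without knockout 3, beside 2.96% and 3.28% of all clusters. The 29 MOR204 receptors had a median difference of -0.07 and a range of -0.47 to 0.15, and 20 of them had lower means. Family MOR268, with 5 receptors and 3 of them lower, had a median of -0.02. Neighbouring genes of a single family therefore spanned much of the range of differences seen in the 53.

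The brightest central receptors showed little difference. Olfr488 read 10.07, 9.90, 10.30 and 9.94 in knockouts and 10.03, 10.15, 9.61 and 10.20 in controls, a difference of 0.05 ± 0.14. Olfr495 differed by 0.00 ± 0.15. Olfr513, the only MOR195 receptor here, had the largest SDs within both groups, 0.50 in knockouts and 0.37 in controls. It read 9.48, 9.71, 10.29 and 9.10 in knockouts and 9.22, 9.97, 10.03 and 9.74 in controls, with a difference of -0.09 ± 0.26.

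The dimmest receptors were flat at this precision. Olfr482 read 4.77, 4.71, 4.78 and 4.93 in knockouts and 4.93, 4.72, 4.72 and 4.96 in controls. Olfr504, the class I gene within the block, read 5.46, 5.79, 5.56 and 5.40 in knockouts and 5.48, 5.67, 5.42 and 5.49 in controls, a difference of 0.04 ± 0.09. A signal on these arrays has no true zero. On the arrays with low Y-linked signal, 3 Y-linked genes still read 6.85 to 8.61. The 8.61 is a single value, Eif2s3y in control 1, and this gene read 7.35, 7.62 and 7.75 in knockouts 1, 2 and 4. Whether 8.61 is background was not tested. Of the 53 receptors 36 had a mean at or below 8.61 and 6 at or below 6.85. The fold change of a receptor near background can understate a change in mRNA.

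The distal block was the most uniform. All 12 of its receptors had lower means in knockouts, with a median of -0.19 and a range of -0.58 to -0.02, and 10 of 12 were lower after scaling to the mature OSN list, beside 12.4% of all clusters. At an unadjusted p under 0.05, 4 of 12 were lower, beside 2.55% of all clusters and 12.5% of the other 830 class II receptors. None had groups that did not overlap, beside 1.48% of all clusters. With each mouse left out in turn, 3 to 6 were lower at that threshold, beside 1.62% to 3.67% of all clusters. The median lay between -0.26 without control 3 and -0.11 without control 1. The smallest limma adjusted p in the block was 0.837. With Y-linked signal, which is described below, as a covariate 1 of 12 was lower at that threshold, beside 1.36% of all clusters, and 11 of 12 had lower means, beside 45.3%.

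Olfr536, of family MOR252, had the highest signal of all 53 receptors, with a mean of 10.06, and the largest difference. It read 9.72, 9.56, 10.34 and 9.47 in knockouts and 10.55, 10.25, 10.11 and 10.50 in controls, a difference of -0.58 ± 0.19 (fold 0.670, limma adjusted p = 0.876). Knockout 3 lay among the controls while the other 3 knockouts lay below all of them. Olfr530, the other MOR252 receptor, read 8.98, 9.26, 9.40 and 8.98 in knockouts and 9.80, 9.50, 9.30 and 9.74 in controls, a difference of -0.43 ± 0.13 (fold 0.740). A cluster that names Olfr530, Olfr533 and Olfr536 together differed by -0.45, but it shares sequence with these genes and is not a separate measurement of any of them.

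Olfr531, of family MOR251, read 8.56, 8.77, 8.76 and 8.56 in knockouts and 9.07, 9.02, 8.71 and 9.16 in controls, a difference of -0.33 ± 0.10 (fold 0.796). Control 3 alone overlapped with the knockouts. Olfr523, the MOR104 receptor, read 9.08, 9.38, 9.32 and 9.13 in knockouts and 9.39, 9.53, 9.34 and 9.72 in controls, a difference of -0.27 ± 0.10 (fold 0.830). The remaining 8 distal receptors differed by between -0.22 for Olfr539 and -0.02 for Olfr522, and the 4 MOR251 receptors by between -0.33 and -0.13. Of the 12 distal receptors 5 also appear in clusters of several genes. The other 7 all had lower means, with a median of -0.15, beside 48.6% lower over all clusters and 73.7% over the other class II receptors.

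The 3 receptors outside the blocks had overlapping groups. Olfr521, next to Olfr520 and of the same family, MOR101, had the highest positive difference of the 53. It read 7.25, 7.38, 7.50 and 7.52 in knockouts and 7.15, 7.40, 6.80 and 7.34 in controls, a difference of 0.24 ± 0.13 (limma adjusted p = 0.910), with control 3 low. Olfr520 differed by 0.03 ± 0.08 and Olfr466, on chromosome 13, by -0.10 ± 0.10.

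Sequence before the genes was taken from RefSeq windows of the GRCm38.p6 assembly. Of the 53 receptors 49 had a window, and in 46 of them the annotated start was the first base of an ATG, so that the 250 bases before it precede the coding sequence and not necessarily a transcription start. The other 3 receptors, Olfr478, Olfr480 and Olfr536, have an annotated start ahead of their coding sequence. Olfr536 and Olfr478 are shown because the first had the largest difference of the group and the second a higher mean, and because the letters of their windows differ. Capitals mark CCCNNGGG, the O/E-like core letters, in Olfr536 and TAATNA, homeodomain core letters, in Olfr478. TAATTA is contained in TAATNA, and each motif was searched on both strands.
Olfr536: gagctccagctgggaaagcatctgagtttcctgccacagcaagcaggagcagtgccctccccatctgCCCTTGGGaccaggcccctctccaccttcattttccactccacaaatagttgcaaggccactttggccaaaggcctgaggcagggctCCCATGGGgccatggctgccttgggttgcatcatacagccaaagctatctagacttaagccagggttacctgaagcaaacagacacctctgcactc
Olfr478: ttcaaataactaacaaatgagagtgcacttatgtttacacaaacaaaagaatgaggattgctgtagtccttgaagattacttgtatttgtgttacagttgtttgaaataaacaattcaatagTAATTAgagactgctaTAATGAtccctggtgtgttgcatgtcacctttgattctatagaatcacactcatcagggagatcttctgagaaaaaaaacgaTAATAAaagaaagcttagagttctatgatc
The Olfr536 window is chr7:140507319-140507568 and the Olfr478 window chr7:108033968-108034217, both on the minus strand and written 5′ to 3′.

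The Olfr536 window held 2 CCCNNGGG matches, starting 183 and 96 bases before the annotated start, and 0 of TAATNA, and 43.6% of its bases were A or T. The Olfr478 window held 3 TAATNA matches, starting 128, 112 and 30 bases before the start, of which the first was TAATTA, and 67.6% of its bases were A or T. Olfr480, with 66.4% A or T, held 1 TAATNA match.

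The windows of the blocks also differed in these letters. Olfr536 and Olfr478 were picked for their contrast and so add nothing to it. TAATNA was found in 28 of 35 central windows (80.0%) and in 1 of 11 distal windows (9.09%), compared with 24.3% of all 32851 windows and 58 of 92 class I windows (63.0%). TAATTA was found in 7 of 49 receptor windows (14.3%) and in 4.84% of all windows. CCCNNGGG was found in 0 of 35 central and 2 of 11 distal windows, against 11.8% of all windows. Base composition differed in the same way, with a median of 69.6% A or T in central windows, 51.2% in distal windows, 63.8% in class I windows and 47.6% in all windows. The annotated start was the first base of an ATG in 46 of 49 receptor windows and in 69 of 92 class I windows. That share was not counted over all windows, so the regions compared may differ in kind. The motif matches describe letters and were not tested as binding sites, and their part in any difference of signal was not tested.

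The group as a whole was dim. The median receptor had a mean log2 signal of 8.25 and the range was 4.81 to 10.06, against a median of 9.17 and quartiles of 7.75 and 10.40 over all clusters. Only 7 of 53 lay above the median of all clusters and 0 above its upper quartile. Distal receptors lay at 8.09 to 10.06 with a median of 8.67, and central receptors had a median of 8.13. Levels of different genes rest on different probes, so their order is no order of mRNA abundance. Within groups the SD of a receptor was 0.09 to 0.50 in knockouts (median 0.19) and 0.05 to 0.37 in controls (median 0.18).

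Differences between mice ran through the whole group. The mean over the 53 receptors was 7.89, 8.06, 8.13 and 7.86 in knockouts and 8.12, 8.11, 7.94 and 8.22 in controls, or 7.99 ± 0.13 in knockouts and 8.10 ± 0.12 in controls (SD, n = 4 each). Knockouts 2 and 3 overlapped with controls, and control 3 lay below them. Knockout 4 was the lowest of the 8 mice for 27 of 53 receptors, knockout 1 for 12 and control 3 for 10. Over the distal block the means were 8.55, 8.72, 8.81 and 8.49 in knockouts and 8.99, 8.84, 8.69 and 8.96 in controls, where control 3 alone fell among the knockouts.

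**Figure D3:**
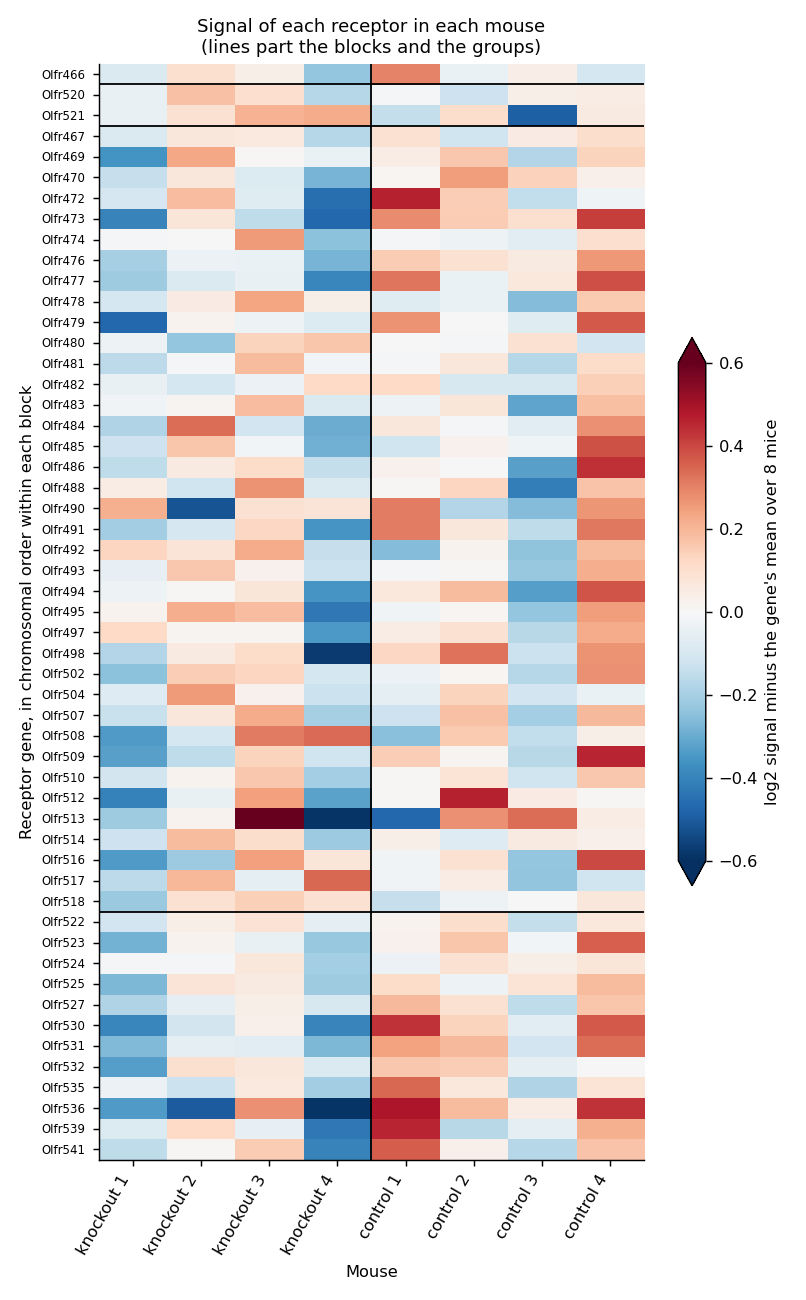
Log2 signal of each of the 53 receptors in each mouse, as the difference from the mean of that receptor over the 8 mice, with colours capped at 0.6 in either direction, knockouts on the left and controls on the right. Knockout 4 was the lowest mouse for 27 receptors and control 4 the highest for 19, and these columns stand out across the blocks.

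The signal of mature OSN markers also differed between mice. The mean of 21 measured mature OSN markers, relative to its 8-array mean, was -0.14, -0.06, 0.09 and -0.07 in knockouts and 0.19, 0.00, -0.14 and 0.13 in controls. Knockout 3 was the highest knockout and control 3 the lowest control, both for this list and for the mean over the 53 receptors. The whole list had 15 of 21 markers with lower means and a median difference of -0.04. At an unadjusted limma p under 0.05, 4 of 21 were lower and 0 higher, beside 2.55% and 2.62% of all clusters. The 4 were S100a5 at -0.58 ± 0.12, Kirrel2 at -0.33 ± 0.09, Rtp2 at -0.26 ± 0.09 and Nrn1l at -0.22 ± 0.08, and none passed after adjustment. All 21 had means between 8.93 and 13.84. Omp read 12.76, 12.67, 12.91 and 12.60 in knockouts and 13.43, 12.72, 12.56 and 13.29 in controls, a difference of -0.27 ± 0.19, and the OmpCre insertion is itself in this gene. Each array was also scaled to the mean of this list, Omp included, and not to its median. S100a5, Kirrel2, Omp and Rtp2, which had the largest differences, weigh most in that mean. After this scaling the median difference of all clusters became 0.10, that of the 53 receptors 0.00 and that of the distal block -0.09. For the other class II receptors it became -0.004. Then 5 of 53 receptors were lower at an unadjusted p under 0.05 where 0.413% of all clusters were. The part of mature OSN number in the receptor differences was not tested.

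**Figure D4:**
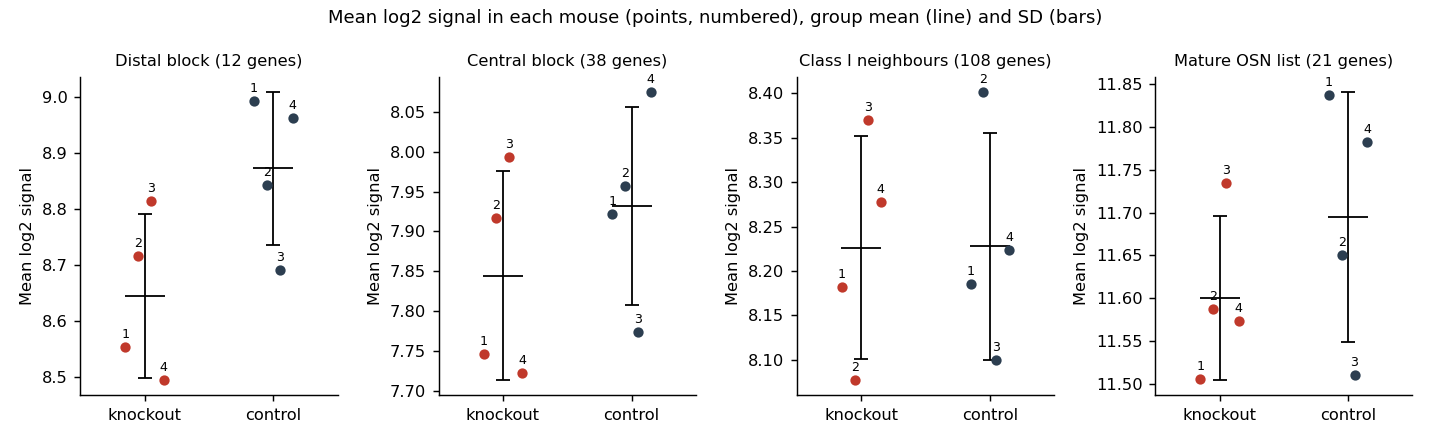
Mean log2 signal of the distal block, the central block, the class I neighbours and the mature OSN list in each mouse (numbered points), with the group mean (line) and SD (bars), 4 mice per group and a separate axis for each panel. Control 3 is the lowest control and knockout 3 the highest knockout in all 4 panels.

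Control 4, the mouse without Cre, was high for these receptors. It was the highest of the 8 mice for 19 of 53 receptors (35.8%) and the lowest for 0. It was the highest for 14.8% of all clusters, for 33.3% of the other class II receptors and for 8.33% of the class I neighbours. Its median excess over controls 1 to 3 was 0.17 over the 53 receptors, 0.23 in the central block and -0.01 over class I neighbours. The largest was in Olfr486 of family MOR204, at 0.54, which read 8.27, 8.48, 8.54 and 8.28 in knockouts and 8.45, 8.42, 8.10 and 8.86 in controls. With control 4 left out the median difference of the 53 was -0.04 and that of the distal block -0.16. In that fit 7 of 53 receptors were lower at an unadjusted p under 0.05, beside 1.85% of all clusters. As control 4 is a single array, absence of Cre and other properties of the sample cannot be told apart.

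Mice also differed in Y-linked signal, unevenly between groups. It was high in knockout 3 and in controls 2, 3 and 4, and low in the other 4 mice. Xist read 10.30 and 10.35 in controls 3 and 4, which also had high Y-linked signal, against 13.41 to 13.52 in the 4 mice with low Y-linked signal and 6.997 and 8.08 in knockout 3 and control 2. Control 1, among the mice with low Y-linked signal, read 8.61 for Eif2s3y, 8.28 for Uty and 7.37 for Kdm5d. Knockouts 1, 2 and 4 read 7.35 to 7.75, 6.91 to 7.47 and 6.85 to 7.31 for these genes. Whether each array, those of controls 3 and 4 among them, holds RNA of a single mouse was not tested. If some do not, the group sizes given here would not be numbers of mice. Among the 4 mice with high Y-linked signal the median difference of the 53 receptors was 0.05, with 19 lower, and among the other 4 it was -0.12, with 41 lower. For the distal block the values were -0.000218 with 6 of 12 lower and -0.37 with 12 of 12 lower. In each of these sets a group was down to 1 mouse, so neither has a test. With Y-linked signal as a covariate 30 of 53 receptors had lower means, with a median of -0.05, beside 45.3% of all clusters. The median of the other class II receptors was also -0.05. In that fit 4 receptors were lower at an unadjusted p under 0.05, beside 1.36% of all clusters, namely Olfr473, Olfr476, Olfr477 and Olfr531.

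The class I neighbours gave a different summary from the same arrays. Their 108 genes, 106 with a class I family and 2 of unknown class, had 56 lower and 52 higher means, a median difference of -0.01, and a range of -0.36 to 0.40. At an unadjusted limma p under 0.05, 2 were lower and 1 was higher, which is near the share of all clusters, and none had groups without overlap. Control 2, the array that stood apart, was the highest array for 46 of the 108 and for 5 of the 53 receptors. Its median excess over the other controls was 0.21 over class I and 0.01 over the 53. Without control 2, 13 class I genes were higher, where 459 of 21789 clusters were. Without knockout 3 or without control 3, 6 were lower, beside 3.28% and 2.96% of all clusters. The class I mean per mouse was 8.18, 8.08, 8.37 and 8.28 in knockouts and 8.19, 8.40, 8.10 and 8.22 in controls. The difference between the 53 receptors and these neighbours was not itself tested.

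The neighbours with the smallest p lay on both sides of 0. Olfr597 differed by -0.36 ± 0.13, with 7.68, 7.61, 8.02 and 7.93 in knockouts and 8.48, 8.09, 7.91 and 8.21 in controls. Olfr606 differed by 0.30 ± 0.10, with 8.65, 8.47, 8.61 and 8.62 in knockouts and 8.32, 8.55, 8.05 and 8.24 in controls. Olfr605, at -0.25 ± 0.11, was the other neighbour lower at an unadjusted p under 0.05, and it is 1 of the 2 whose class is unknown. Its synonyms name both a class II family, 202, and a class I family. The next named in each direction were Olfr550 at -0.32, Olfr619 at 0.27 and Olfr607 at 0.21, none of them past that threshold. The brightest neighbours, Olfr672, Olfr620 and Olfr571, differed by -0.14, 0.24 and 0.11.

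**Figure D5:**
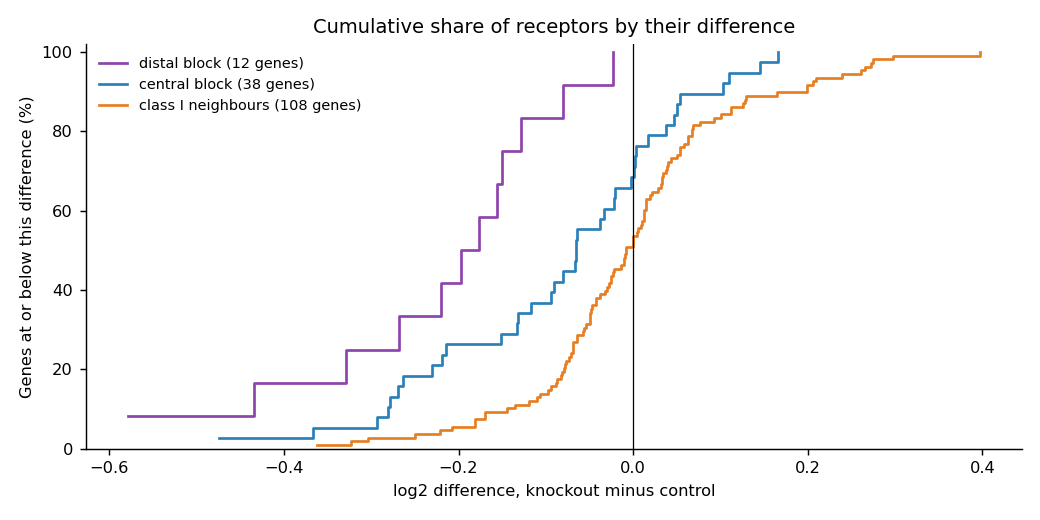
Cumulative share of receptors (vertical axis, percent) at or below each log2 difference, knockout minus control (horizontal axis), for the 12 distal receptors, the 38 central receptors and the 108 class I neighbours. The distal line reaches 100% below 0, the central line crosses 0 at 68.4% and the class I line at 51.9%; after scaling to the mature OSN list 10 distal and 14 central receptors lay below 0, beside 12.4% of all clusters, and the class I median was 0.09.

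Among 24 measured regulators of receptor choice, 14 had lower and 10 higher means, with a median of 0.00. At an unadjusted p under 0.05, 4 were lower and 1 was higher, beside 2.55% and 2.62% of all clusters. None passed the adjusted threshold. The lower ones were Emx2, which is the deleted gene, Rtp2, which helps receptors to the cell surface, and the stress-response transcription factors Ddit3 and Atf5. Rtp2 differed by -0.26 ± 0.09, Ddit3 by -0.21 ± 0.06 and Atf5 by -0.15 ± 0.06. Rtp2 was also counted in the mature OSN list above. The higher one was Cbx5, a heterochromatin protein, at 0.14 ± 0.05. Lhx2 differed by 0.05 ± 0.08. Lists of 12 immature OSN, 6 sustentacular and 9 myeloid markers had 7, 3 and 5 markers with lower means, and their medians lay between -0.02 and 0.00. At an unadjusted limma p under 0.05, 2 of the 12 immature OSN markers were lower, beside 2.55% of all clusters. These were Trib3 at -0.20 ± 0.07 and Gap43 at -0.11 ± 0.05, and neither passed after adjustment. The sustentacular and myeloid lists had 0 in either direction.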

How the data were processed

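RNA of 8 olfactory mucosae was measured on GeneChip Mouse Gene ST version 1.0 arrays. The authors deposited a log2 signal for each transcript cluster. Their processing notes list the Affymetrix Expression Console with no version, and sources used here do not give its summarisation algorithm. Values ran from 2.65 to 14.9 and array medians from 8.64 to 8.68, so they were used as deposited. Arrays hold no counts, so their number limits the precision. Each array was taken as a separate mouse, numbered in accession order.

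Of 35557 clusters, 21789 named a single gene and entered the test. A further 1621 named several genes and 12147 listed none. Symbols, receptor families, gene order and upstream windows came from RefSeq tables of GRCm38.p6, in which 21698 of the tested clusters were found. A genome build for the arrays themselves was not given there. Knockouts and controls were compared by limma 3.58.1 in R 4.3.3 (lmFit and eBayes, two-sided, Benjamini-Hochberg adjustment over 21789 clusters), checked on simulated data. A receptor with several clusters was represented by the brightest.

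The receptors named were the 10 lower and 5 higher with the smallest p, and the 5 brightest and 3 dimmest. Also named were the one with the largest gap of control 4, and 3 class I neighbours in each direction and by signal. Olfr523 was named because the study tabulates it. There it is marked as significant in Emx2 mice with another Cre driver, and not in OmpCre:Emx2 fl/fl mice. Remarks on Olfr466, Olfr520, Olfr522 and Olfr539 were added after their values were seen. The members and lists were chosen with earlier results of these data known. Alternatives were quantile normalization, scaling to the mature OSN list, a Y-linked covariate, array weights, an intensity trend, bright clusters only, cluster means, the methods' t-test and leaving out each mouse.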

Additional observations from a re-analysis of the deposited data

Results flagged for a closer look

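Among the 78 groups of 4 values examined for the receptors and genes named above, a single value lay far from the others of its group. The class I neighbour Olfr571 read 9.75 in control 4, the mouse without Cre, against 9.44 to 9.49 in the other 3 controls, and its gap was 0.846 of the range of the group. Chance alone gives such a value in about 1 in 20 groups. No group of the named receptors of Olfr466 to Olfr542 held one.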

How the results depend on the processing

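No receptor of Olfr466 to Olfr542 passed an adjusted p of 0.05 under any alternative fitted. Of the 8 receptors lower at an unadjusted p under 0.05, all 8 stayed so under quantile normalization, array weights, the intensity trend and cluster means. With arrays scaled to the mature OSN list, 5 receptors were lower and 1 was higher at that threshold, beside 90 and 958 of 21789 clusters. By their means 25 were lower, beside 12.4% of all clusters. The central block had 2 lower and 14 with lower means, and class I had 1 lower and 2 higher. The direction turned for Olfr513 (0.00482), Olfr495 (0.0923), Olfr482 (0.0613) and Olfr486 (0.0293), as the median of all clusters moved to 0.10. With the Y-linked covariate, 4 receptors (1 distal) were lower, beside 1.36% of all clusters. In that fit class I had 0 lower and 9 higher, where 395 of 21789 clusters were higher. The direction turned there for Olfr513 (0.364), Olfr495 (0.0776) and Olfr486 (0.00425). Array weights gave class I 4 lower and 2 higher, beside 804 and 711 of 21789 clusters. Array weights also turned Olfr474 to -0.0627, and quantile normalization turned it to -0.0214. Among clusters above the median signal (2.76% lower at the threshold) 7 receptors were left, with 3 lower at it and 6 by their mean. Of these the central block had 0 and 3, and the distal block 3 by their mean with a median of -0.43. Class I had 1 lower and 0 higher in that fit. Olfr597, Olfr605 and Olfr606, which were past the threshold in the main fit, had means of 7.99, 8.53 and 8.44. These lie below the median signal of all clusters, 9.17, so those genes were not in it. By the methods' t-test class I had 0 lower. Leaving out distal receptors that shared clusters name, an alternative chosen after seeing the data, left 2 lower at the threshold and 7 lower by their mean, of 7. Over all clusters 2.55% and 48.6% were so, and over the other 830 class II receptors 12.5% and 73.7%. Another alternative chosen after seeing the data, without Olfr466 and Olfr504, left 38 of 51 lower by their mean.

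With each mouse left out in turn, 6 to 14 receptors were lower and 0 to 1 higher at the threshold, with 3 to 8 in the central block. Without control 3 there were 14 (8 central) and without knockout 3 there were 12, beside 2.96% and 3.28% of all clusters. The cause of these changes was not tested. The number with lower means ran from 34 to 45. Class I ran from 0 to 6 lower and from 1 to 13 higher. The 13 were without control 2, where 459 of 21789 clusters were higher. Direction depended on the mouse left out for Olfr504 (-0.0423 to 0.0879), Olfr488 (-0.0760 to 0.120), Olfr474 (-0.0815 to 0.0851), Olfr513 (-0.305 to 0.0912), Olfr495 (-0.0801 to 0.141), Olfr482 (-0.0789 to 0.00855), Olfr486 (-0.186 to 0.0687) and Lhx2 (-0.0312 to 0.0991). No paired analysis was possible because the replicate numbers follow accession order and the labels name no litter. Signals near background limit the dim receptors.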
